A study of Ovis aries with 24 samples.

Results

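The receptors and the processing enzyme of the angiotensin system were followed in the wall of 2 neighbouring vessels of the sheep. These were the ductus arteriosus and the ascending aorta, from the preterm fetus to the first day of life. The genes were AGTR1, AGTR2 and ACE, found as every probe of the array whose gene name or description names 1 of them: 3 of the 669 genes named here, with 7 of 15008 probes. AGTR1 (the array's AT1-R) had 1 probe, A_70_P030096. AGTR2 (the array's AT2) had 2 probes, A_70_P017106 and A_70_P017107. ACE had 4 probes, of which A_70_P031641 and A_70_P031642 stand for the somatic transcript and A_70_P031636 and A_70_P031637 for the testis-specific transcript. A gene is represented by its brightest probe where 1 value is given, which was A_70_P017106 for AGTR2 and A_70_P031641 for ACE.

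Total RNA of ductus and aorta was hybridised to 24 single-colour arrays, 1 sample per array, in 6 groups of 4: the preterm fetus (97 days of gestation), the near-term fetus (136 days) and the newborn lamb (12 hours after birth), with both vessels at each stage. Full term is 145 days. The sample titles give 100 and 140 days for the same fetal groups. The labels name 4 animals for each group, and no treatment or genetic change in any of them; all animals were killed with Euthasol, which contains pentobarbital sodium and phenytoin sodium. Whether same-numbered ductus and aorta samples share an animal is not stated. Each stage was on a slide of its own, with the ductus in 1 column and the aorta in the other, so stage cannot be told apart from slide, nor vessel from column.

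Angiotensin II is made from angiotensin I by angiotensin-converting enzyme (ACE), which sits mainly on endothelium and also degrades bradykinin, a relaxing peptide. In vascular smooth muscle the type 1 receptor (AGTR1) couples to Gq and calcium and contracts the muscle, while the type 2 receptor (AGTR2) is typical of fetal tissue and opposes many actions of the type 1 receptor. The ductus arteriosus is the fetal shunt from the pulmonary artery to the aorta. It constricts after birth, while the aorta does not.

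Values are log2 signals relative to the 75th percentile of the same array, so that 0 stands for that percentile and -1 for a signal at 50 percent of it. All 24 arrays went into 1 fit with limma, with p-values adjusted by Benjamini-Hochberg over the 13997 tested probes and calls at an adjusted p under 0.05. A value after ± is the standard error from that fit, except where SD is written. Of the 7 probes, 5 could be tested, since the 2 testis-specific ACE probes were not well above background on enough arrays. The arrays fell into 2 sets by the spike-in detection limit that Feature Extraction reported. The limit was 1.80 to 2.55 on 12 arrays, where 81.8 to 94.4% of spots were well above background. On the other 12 it was 0.0987 to 1.02, and 66.2 to 72.7% of spots were. The arrays with the higher limit thus had more spots above background, so the 2 measures do not rank the arrays alike in sensitivity. The reason was not tested. All 4 newborn ductus arrays had the limit under 1.5. So did 2 of 4 arrays of the newborn aorta, the preterm ductus and the near-term ductus, and 1 of 4 in both fetal aorta groups. Of the smooth muscle and elastic wall markers ACTA2, MYH11, TAGLN, CNN1 and ELN, 1 has a named probe, CNN1. Its mean was 4.99 to 6.13 in the 6 groups.

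AGTR2, the type 2 receptor, fell in both vessels between the preterm fetus and the newborn. In the ductus the newborn signal was 7.50-fold lower than the preterm signal, and in the aorta it was 11.9-fold lower. Without newborn aorta replicate 1, on which the AGTR2 probe was not well above background, the aortic fall was 7.67-fold, and with a normexp background correction the falls were 4.95-fold in the ductus and 3.88-fold in the aorta, so the order of the vessels is not settled. These were the largest differences of the 3 genes that passed the test. AGTR1, the type 1 receptor, was 2.33-fold lower in the newborn ductus than in the newborn aorta and passed in no other comparison; its differences between stages of the aorta were -0.06 to 0.15. ACE, tested with 2 probes, passed in none of the 11 comparisons.

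**Figure D1:**
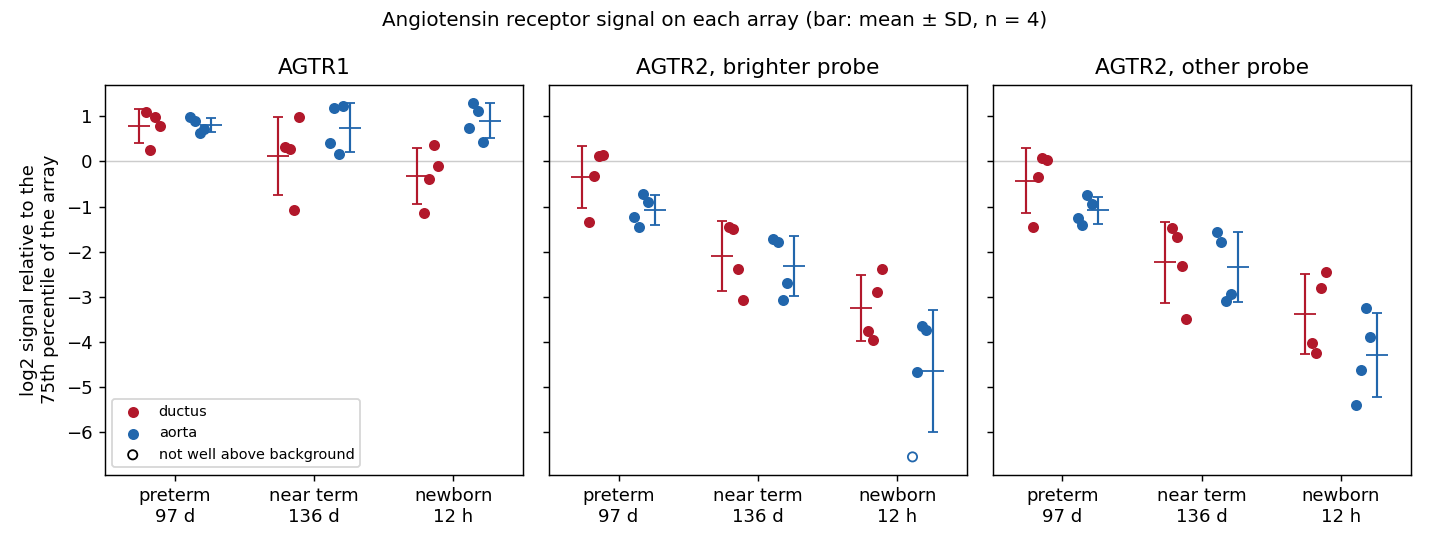
Signal of the AGTR1 probe and both AGTR2 probes on each array (points), as log2 signal relative to the array's 75th percentile, by stage and vessel; bars give mean ± SD of 4 arrays and the open point was not well above background. The AGTR2 points step down from preterm to newborn in both vessels, from a mean of -0.35 to -3.25 in the ductus and from -1.08 to -4.65 in the aorta, while AGTR1 in the aorta stays between 0.16 and 1.30 on all 12 arrays.

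The AGTR1 probe was well above background on 24 of 24 arrays. In the preterm ductus the 4 arrays gave 1.10, 0.26, 0.98 and 0.79, and in the preterm aorta 0.98, 0.89, 0.63 and 0.71. The vessels overlapped at this stage, with a difference of -0.02 ± 0.37 (95% interval -0.80 to 0.76; limma adjusted p = 0.984). In the near-term ductus the values were 0.32, 0.28, -1.08 and 0.98, against 0.41, 1.18, 0.16 and 1.24 in the near-term aorta. The ductus arrays were wide apart here, and the groups overlapped (difference -0.62 ± 0.37; limma adjusted p = 0.850). In the newborn ductus the values were -1.14, -0.40, 0.36 and -0.11, against 0.75, 1.30, 1.11 and 0.43 in the newborn aorta. Every newborn ductus array lay below every newborn aorta array.

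The newborn difference in AGTR1, ductus minus aorta, was -1.22 ± 0.37 (2.33-fold; 95% interval of the ductus over aorta ratio 0.250 to 0.737; limma adjusted p = 0.0429). The group means corresponded to 80.1% of the 75th percentile in the ductus and 186.5% in the aorta. AGTR1 was the only one of the 5 tested probes called in this comparison, in which 10.1% of all tested probes were called. The arrays of the 2 groups parted with the ductus lower for 13.4% of all tested probes, and the median difference of all tested probes was -0.28. The call rested on a narrow margin: with median centring in place of the 75th percentile the difference was -1.05 (limma adjusted p = 0.182), and of the 8 fits that left out 1 of these arrays it passed in 2, without newborn aorta replicate 4 or newborn ductus replicate 3, with adjusted p-values of 0.0304 to 0.150 over the 8. With the 6 arrays of these groups whose spike-in limit was under 1.5 it was -1.35 (limma adjusted p = 0.0920).

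Between stages, AGTR1 in the aorta passed in no comparison. The near-term minus preterm difference was -0.06, the newborn minus near-term difference 0.15 and the newborn minus preterm difference 0.09, each ± 0.37, with limma adjusted p-values of 0.967, 0.831 and 0.944. The 95% interval of the newborn minus preterm difference, -0.69 to 0.87, still allows a fold of 0.621 to 1.83. In the ductus the mean went from 0.78 (SD 0.37) in the preterm group to 0.12 (SD 0.87) near term and -0.32 (SD 0.63) in the newborn, n = 4 each. None of these steps passed: near-term minus preterm was -0.66 (limma adjusted p = 0.514), newborn minus near-term -0.45 (0.394) and newborn minus preterm -1.10 (0.0503). The newborn and preterm ductus arrays overlapped by 1 array on each side, at 0.36 and 0.26. The change in the ductus was not shown to differ from that in the aorta, either between preterm and near term (-0.60 ± 0.53; limma adjusted p = 1.00) or between near term and newborn (-0.60 ± 0.53; limma adjusted p = 0.880). The former comparison called 0% of tested probes and the latter 0.393%.

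**Figure D2:**
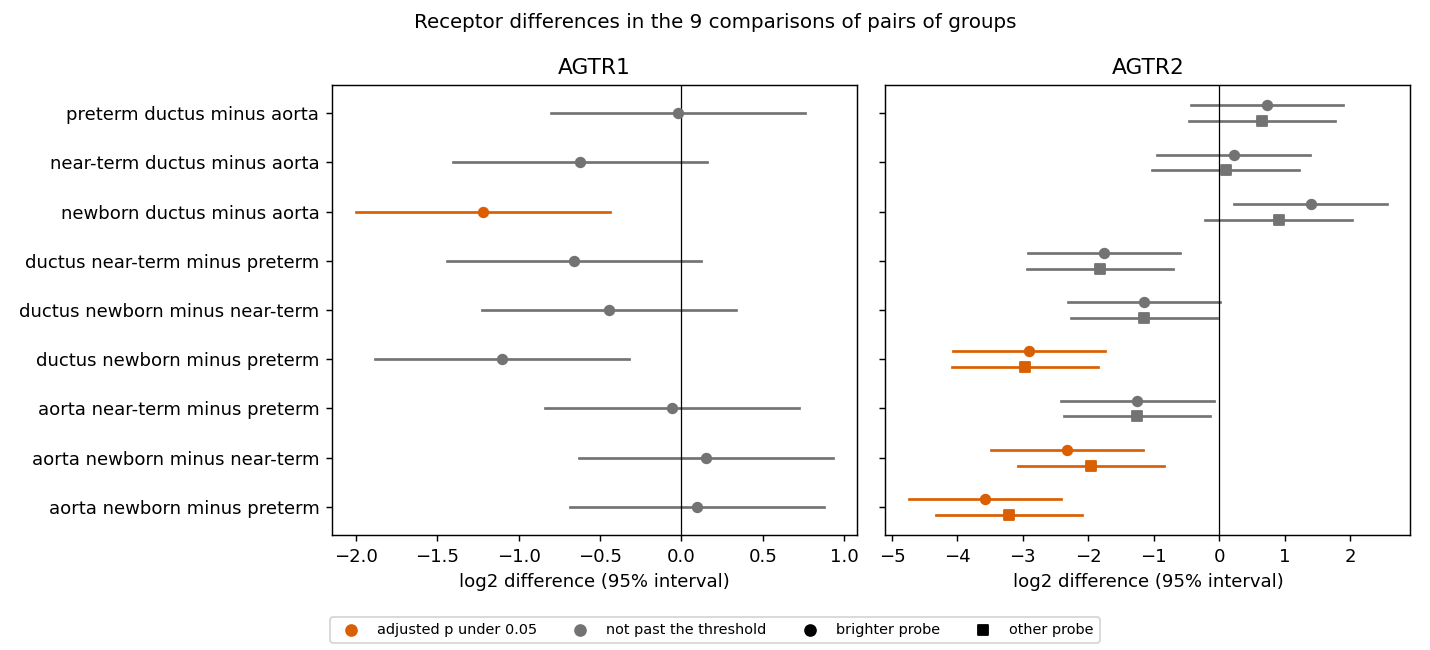
Differences in log2 signal of AGTR1 and of both AGTR2 probes in the 9 comparisons of pairs of groups, with 95% intervals of the limma fit; orange marks an adjusted p under 0.05. AGTR1 passed in 1 comparison, newborn ductus minus aorta, and both AGTR2 probes passed in the same 3: newborn minus preterm in each vessel and newborn minus near-term in the aorta.

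In order of level, AGTR1 ran from the newborn aorta (0.90) over the preterm aorta (0.81), the preterm ductus (0.78) and the near-term aorta (0.75) to the near-term ductus (0.12) and the newborn ductus (-0.32). The first 4 lie within 0.15 of each other, less than the SD within any of these groups (0.16 to 0.54). The steps from the near-term aorta to the near-term ductus and on to the newborn ductus, last in this order, also did not pass the test.

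For AGTR2 the 2 probes followed each other closely, with a Pearson r of 0.984 over 24 arrays and a median absolute difference of 0.079. The widest gap between them, 1.16, was on newborn aorta replicate 1, where the brighter probe was not well above background. In the preterm ductus the brighter probe gave -1.33, -0.32, 0.12 and 0.14, and in the preterm aorta -1.23, -1.46, -0.72 and -0.90. In the near-term ductus it gave -1.45, -1.51, -2.40 and -3.07, and in the near-term aorta -1.73, -1.80, -3.07 and -2.71. In the newborn ductus it gave -3.75, -3.97, -2.91 and -2.39, and in the newborn aorta -6.56, -4.68, -3.64 and -3.73, of which -6.56 was the value not well above background. Within each vessel every preterm array was above every near-term and every newborn array. In the aorta the near-term and newborn arrays also did not overlap, while in the ductus they did.

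In the ductus, newborn minus preterm was -2.91 ± 0.56 for the brighter AGTR2 probe (95% interval -4.07 to -1.74; limma adjusted p = 0.00116) and -2.96 ± 0.53 for the other (limma adjusted p = 0.000666). Both AGTR2 probes, and no AGTR1 or ACE probe, were among the 15.7% of tested probes called in this comparison. The mean signal went from 78.6% of the 75th percentile in the preterm ductus to 10.5% in the newborn ductus. Arrays parted with the newborn lower for 12.9% of all tested probes. The near-term group lay between, at -2.11 (SD 0.78, n = 4). Near-term minus preterm was -1.76 (3.38-fold lower; limma adjusted p = 0.218) in a comparison that called 0.314% of tested probes; the arrays did not overlap, as for 3.13% of tested probes in this direction. Newborn minus near-term was -1.15 (2.22-fold lower; limma adjusted p = 0.151). The fall in the ductus therefore passed over the whole interval and in neither step taken alone.

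In the aorta, newborn minus preterm was -3.57 ± 0.56 for the brighter probe (95% interval -4.74 to -2.41; limma adjusted p = 0.000305) and -3.22 ± 0.53 for the other (9.29-fold lower; limma adjusted p = 0.000557). This comparison called 9.09% of all tested probes, the 2 AGTR2 probes among them, and arrays parted with the newborn lower for 7.23%. The mean went from 47.4% of the 75th percentile to 3.98%. Newborn minus near-term was -2.33 ± 0.56 (5.01-fold lower; limma adjusted p = 0.0164) and -1.96 ± 0.53 for the other probe (3.88-fold lower; limma adjusted p = 0.0328), among 6.44% of probes called and 5.58% whose arrays parted this way. Near-term minus preterm was -1.25 (limma adjusted p = 0.429), among 0.493% called, and its arrays parted as did those of 4.99% of tested probes. The step at birth in the aorta was less firm than the whole fall: with the arrays whose spike-in limit was above 1.5 it was -1.16 (limma adjusted p = 0.455), and it passed in 5 of the 8 fits without 1 array, missing without newborn aorta replicate 1 (-1.69; limma adjusted p = 0.0557) and without near-term aorta replicate 1 or 2.

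The newborn minus preterm fall of AGTR2 was also present within the arrays of like spike-in limit. In the ductus it was -3.16 over the arrays with a limit under 1.5, 4 newborn and 2 preterm (limma adjusted p = 0.0192). In the aorta it was -2.66 over the arrays with a limit above 1.5, 2 newborn and 3 preterm (limma adjusted p = 0.0360). The aortic arrays under 1.5 include 1 preterm array, so the difference of -4.38 there is given with no test. No newborn ductus array had a limit above 1.5, so that value could not be had for the ductus. The smaller falls with the normexp correction both passed (limma adjusted p = 3.51e-05 and 0.000465). The exact two-sided permutation test of 4 against 4 arrays gave p = 0.0286 in both vessels, which is the smallest p this design allows.

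Between the vessels AGTR2 did not pass the adjusted test at any stage with the 75th percentile scaling and no replicate block. With the replicate number as a block the newborn difference, 1.40, did pass. The labels do not say that these numbers mark shared animals. Ductus minus aorta was 0.73 ± 0.56 in the preterm groups (limma adjusted p = 0.592; 0.707% of tested probes were called), 0.22 ± 0.56 near term (0.941; 1.15% called) and 1.40 ± 0.56 in the newborn (0.114). The newborn value for the other probe was 0.91 ± 0.53 (0.248). The groups overlapped at each stage, and the 95% interval of the newborn difference, 0.23 to 2.56, spans a fold of 1.18 to 5.90 and leaves out 0, with an unadjusted p of 0.0210. With quantile scaling the newborn difference was 1.79 and passed (limma adjusted p = 0.0437), while with normexp it was 0.27 and without newborn aorta replicate 1 it was 0.76 (limma adjusted p = 0.559 and 0.262). The newborn minus near-term change in the ductus differed from that in the aorta by 1.18 ± 0.79 (limma adjusted p = 0.832), and the near-term minus preterm change by -0.51 ± 0.79 (limma adjusted p = 1.00). In order of level, AGTR2 ran from the preterm ductus and aorta over the near-term ductus and aorta to the newborn ductus and aorta. The 2 vessels of 1 stage were neighbours in that order. Their arrays overlapped at each stage.

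The within-array difference of log2 AGTR1 and log2 AGTR2 does not change when a single value is subtracted from all log2 signals of an array. Quantile scaling and the normexp correction can change it. With normexp the AGTR2 falls from preterm to newborn were smaller, at -2.31 in the ductus and -1.96 in the aorta, against -2.91 and -3.57. The shifts below were taken without either. The difference is given relative to its mean over the 24 arrays, because the signals of different probes cannot be set against each other. In the ductus it went from a mean of -1.67 (range -2.22 to -0.36) in the preterm group to 0.13 (range -0.51 to 0.77) in the newborn, a 3.49-fold shift toward AGTR1. In the aorta it went from -0.92 (range -1.44 to -0.45) to 2.75 (range 1.36 to 4.51), a 12.7-fold shift. The highest of these, 4.51, was newborn aorta replicate 1, and without it the newborn mean was 2.17 and the shift 8.47-fold. The preterm and newborn arrays overlapped in the ductus and did not in the aorta. AGTR2 alone also parted these aorta groups, as did 7.23% of all tested probes in that direction. The lowest newborn aorta array was above the highest newborn ductus array. AGTR1 alone also parted the newborn vessels, as did 13.4% of all tested probes with the ductus lower. How often differences of other probes part these groups was not counted. With the other AGTR2 probe the shifts were 3.63-fold and 9.91-fold. These values describe the arrays and were not tested.

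**Figure D3:**
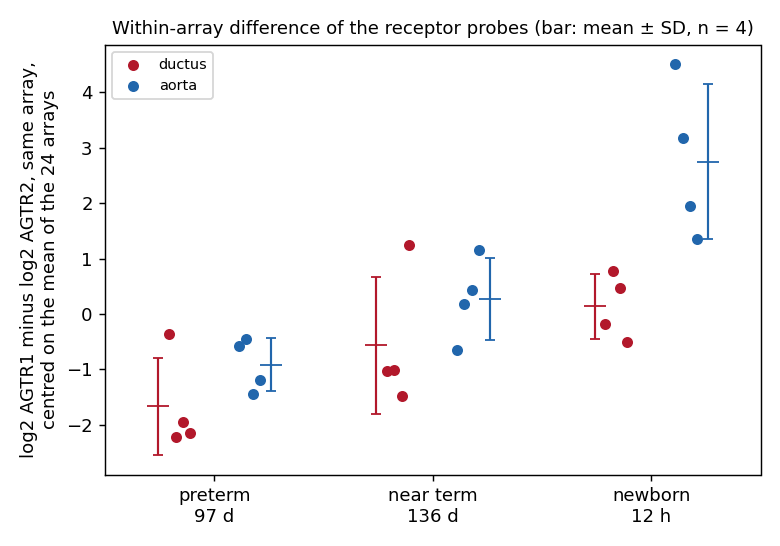
Within-array difference of log2 AGTR1 and log2 AGTR2 (brighter probe), relative to its mean over the 24 arrays, by stage and vessel; points are arrays and bars mean ± SD of 4. The newborn aorta arrays, at 1.36 to 4.51, lie above all 4 newborn ductus arrays, at -0.51 to 0.77. AGTR1 alone also parted these groups, as did 13.4% of all tested probes with the ductus lower.

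Among the named genes, the 3 whose signal ran most like AGTR2 over the arrays were PMCH (pro-melanin-concentrating hormone; Pearson r = 0.795), IGFBP2 (a carrier of insulin-like growth factors; 0.792) and IGF2 (the fetal growth factor; 0.789 over the 18 arrays with a usable spot). Over the 6 group means the values were 0.955, 0.969 and 0.981. The group means of IGFBP2 went from 4.04 to 1.75 in the ductus and from 3.62 to 0.56 in the aorta between preterm and newborn. The gene least like it was FABP4, a fatty acid carrier of endothelium, fat cells and macrophages (r = -0.862; -0.970 over the group means), whose mean went from -5.17 to -0.64 in the ductus and from -3.96 to 1.46 in the aorta. For AGTR1 the likeness was weaker, with PGD (0.715), ABCG2 (0.668) and RPS6 (0.666) at the top and SNAI1 (-0.724) at the bottom. These are descriptions over 635 named genes and share the arrays' scaling. AGTR1 and AGTR2 themselves correlated at 0.138 over the 24 arrays.

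**Figure D4:**
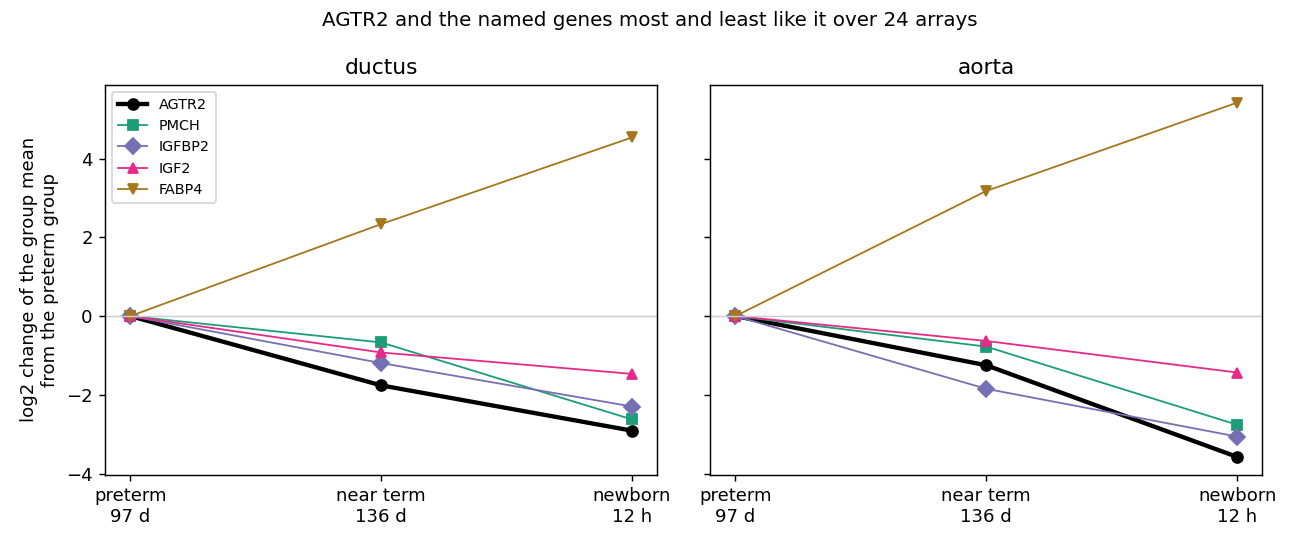
Change of the group mean of log2 signal from the preterm group of the same vessel, for AGTR2 (black), the 3 named genes most like it over the arrays and the gene least like it. AGTR2 ends at -2.91 in the ductus and -3.57 in the aorta; PMCH, IGFBP2 and IGF2 go down with it in both vessels and FABP4 goes up.

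ACE, the converting enzyme, was at the edge of detection. The brighter somatic probe was well above background on 14 of 24 arrays and the other somatic probe on 7. The testis-specific probes were above background on 1 and 0 arrays. In the preterm ductus the brighter probe gave -2.65, -7.94, -8.14 and -4.20, and in the preterm aorta -5.41, -3.10, -3.92 and -3.71. In the near-term ductus it gave -2.33, -6.77, -3.15 and -6.49, and in the near-term aorta -5.94, -2.63, -2.42 and -3.72. In the newborn ductus it gave -7.52, -5.76, -7.62 and -7.21, none of them well above background, and in the newborn aorta -6.96, -5.29, -3.84 and -1.14, of which 3 were. Single arrays of 1 group were up to 5.82 apart, so the groups were wide and overlapped in each comparison.

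The signal of the brighter ACE probe moved with the spike-in limit of the arrays. On the 12 arrays with a spike-in limit above 1.5 the brighter probe was well above background on all 12, at -4.20 to -1.14 (median -3.12). On the 12 arrays under 1.5 it was above background on 2, at -8.14 to -5.29 (median -6.87). The 2 sets of arrays did not overlap, which was so, in the same direction, for 8.85% of all tested probes and in the other direction for 0. The other somatic probe overlapped between the sets, at -6.38 to -3.35 above 1.5 and -7.71 to -4.90 under it, with medians 2.61 apart. The testis-specific probes also overlapped, and their medians were 0.54 and 0.17 apart. The 3 named genes most like ACE over the arrays, COL4A3 (Pearson r = 0.980), FLT1 (0.972) and ITGB6 (0.970), were likewise above background on all 12 arrays with the higher limit and on 1 or 2 of the others.

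**Figure D5:**
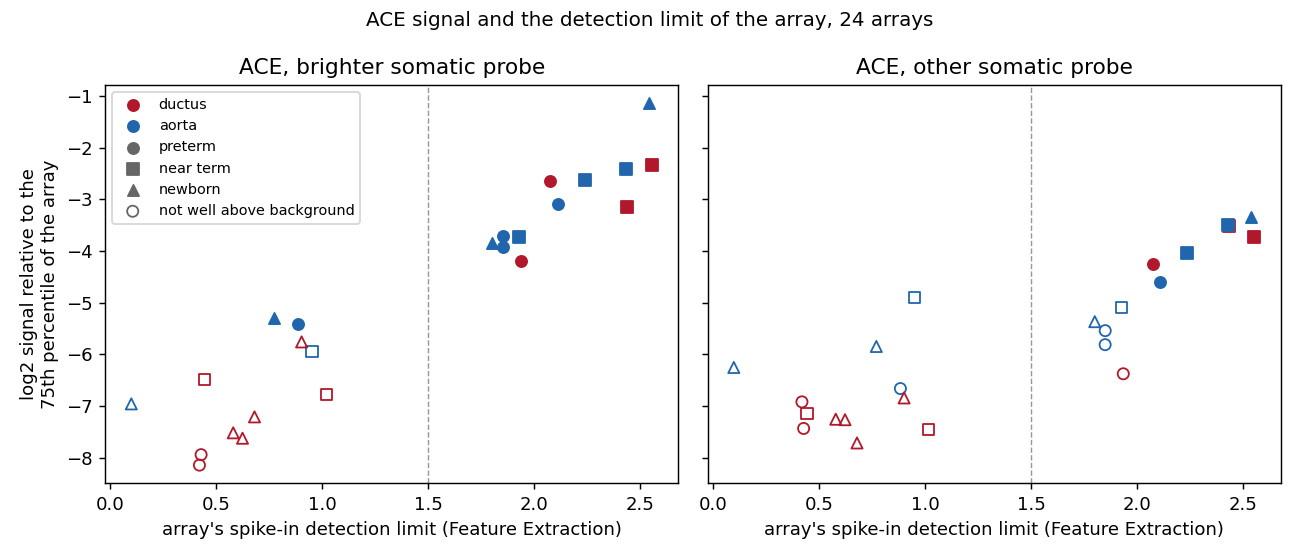
Signal of both somatic ACE probes on 24 arrays (log2, relative to the array's 75th percentile) against the spike-in detection limit of the array as Feature Extraction gives it; filled points were well above background and the dashed line marks 1.5. For the brighter probe every array to the right of the line, at -4.20 to -1.14, is above every array to its left, at -8.14 to -5.29, in both vessels and at all stages.

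No ACE comparison passed with limma; at an unadjusted p under 0.05 the brighter somatic probe passed in 0 and the other in 2 of 11. The newborn ductus, where all 4 arrays had the lower spike-in limit, was below the newborn aorta by -2.72 ± 1.33 (limma adjusted p = 0.183). Because the newborn ductus was not above background on any array, this is given as at least 2.58-fold. That bound uses the lowest signal called above background on each of those arrays, or the probe's own signal if higher. It is a convention and no strict lower limit on the difference between the vessels. The near-term ductus stood at least 1.98-fold above the newborn ductus on the same rule (limma adjusted p = 0.204). Neither is a call, and the means of the newborn aorta and the near-term ductus include arrays with a limit above 1.5. Over the arrays with a limit under 1.5 alone, the measured newborn ductus minus aorta difference was -0.90 (1.87-fold; 4 and 2 arrays; limma adjusted p = 0.373) and the newborn minus near-term difference in the ductus was -0.39 (1.31-fold; 4 and 2 arrays; limma adjusted p = 0.716), both smaller than these bounds. Of the arrays in these differences, only newborn aorta replicate 2 was well above background. The other somatic probe was lower in all 4 newborn ductus arrays than in all 4 newborn aorta arrays (difference -2.07 ± 0.86; limma adjusted p = 0.128), with 0 and 1 arrays well above background. Arrays parted this way for 13.4% of all tested probes. Over the arrays with a limit above 1.5 alone, ductus minus aorta was 0.15 in the preterm groups and 0.19 near term, against -1.70 and -1.01 over all arrays. ACE in the newborn ductus has only an upper bound in these data.

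Of 25 other genes of the angiotensin and kinin pathway, 4 have a named probe and were tested: KLK1 (tissue kallikrein), NR3C2 (the mineralocorticoid receptor), CYP11B1 (steroid 11-beta-hydroxylase) and HSD11B2 (which inactivates cortisol). None of the 4 passed in any of the 11 comparisons by the limma test, and 6 of these 44 tests had an unadjusted p under 0.05, as did 16.3% of the tests of all tested probes. In the newborn, the differences ductus minus aorta were -1.05 for NR3C2 and -2.20 for HSD11B2, beside a median of -0.28 for all tested probes. KLK1 and CYP11B1 were above background on 0 of the 4 newborn ductus arrays, all of which had the lower spike-in limit, so that their levels there have only an upper bound. On the rule used for ACE, CYP11B1 was at least 2.34-fold lower in the newborn ductus than in the aorta, and KLK1 allowed no fold. The limma adjusted p-values of the 4 genes were 0.126 to 0.236. The part of that limit in these differences was not tested.

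Of 38 genes of angiotensin receptor signalling, 7 were tested, and 4 of them passed in at least 1 of the 11 comparisons, as did 27.8% of all tested probes. NOS3 (endothelial nitric oxide synthase) was higher in the newborn ductus than in the newborn aorta by 1.60 ± 0.35 (limma adjusted p = 0.00589), opposite in direction to AGTR1. It also rose from preterm to newborn in the ductus by 1.07 ± 0.35 (limma adjusted p = 0.0401). TGFB1, a growth factor that angiotensin II induces, rose in the ductus between near term and newborn by 1.02 ± 0.20 (limma adjusted p = 0.00215; 10.8% of probes were called). PPP2CA, a phosphatase subunit, went down by 0.58 there (difference -0.58 ± 0.15; limma adjusted p = 0.0151). RGS2, which damps Gq signalling from AGTR1, rose in the aorta from preterm to newborn by 1.73 ± 0.53 (limma adjusted p = 0.0434). NOX4, CYBB and NOS1 did not pass in any comparison.

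Of 9 other vasoactive receptors 4 were tested, and NPY1R, a constrictor receptor for neuropeptide Y, was the only one called. Of all tested probes, 27.8% were called in at least 1 of the 11 comparisons. NPY1R was lower in the ductus at all 3 stages, by -1.45, -1.95 and -2.40 (limma adjusted p = 0.0490, 0.00500 and 0.000131). These comparisons called 0.707%, 1.15% and 10.1% of tested probes. EDNRA, EDNRB and PTGER4 did not pass in any comparison. The lower NPY1R in the ductus was thus present from the preterm stage, at which the AGTR1 difference between the vessels was -0.02.

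Markers of other cells moved with some of the same comparisons. In bulk tissue fewer cells of a type and less RNA per cell cannot be told apart. The newborn comparison of the vessels called 10.1% of all tested probes. Of 15 endothelial markers 7 are on the array and 6 were tested. In the newborn, NOS3 and SELP were called higher in the ductus. KDR, TEK and TIE1 were not called, at 0.47, 0.88 and 0.45. FLT1 was not called either and lay the other way, at least 2.58-fold lower in the ductus. It was above background there on 0 of 4 arrays, all of which had the lower spike-in limit. Over the series FLT1 was above background on all 12 arrays with the higher limit and on 1 of the other 12. The part of that limit in the FLT1 difference was not tested. The log2 of the summed signal of the list was 1.17 to 1.64 in the newborn ductus and -0.69 to 0.63 in the newborn aorta. That sum includes the called gene NOS3, whose means were 0.56 and -1.04. Of 10 smooth muscle markers 2 are on the array, CNN1 and MYLK, and neither was called in that comparison; their sum was 6.41 to 7.18 in the newborn ductus and 6.04 to 7.21 in the newborn aorta. Of 8 fibroblast markers 4 are on the array, and DCN and C3 were called higher in the newborn ductus than in the aorta, by 1.31 and 2.63. COL1A1 and COL3A1 lay the other way, at -0.44 and -0.75, and were not called. The summed signal, 5.56 to 6.23 in the newborn ductus and 3.85 to 4.99 in the newborn aorta, is mostly that of DCN, whose means were 5.75 and 4.44. Both neutrophil genes on the array, of 5 listed, were called lower in the newborn ductus, where each was above background on 1 of 4 arrays. Of the 2 genes on the array from the list of blood, liver and nerve genes, ALB was called lower in the newborn ductus, above background there on 0 of 4 arrays, and HBB was not called (difference 1.02). Of 3 tested macrophage genes 1 was called higher in the newborn ductus than in the aorta, and of 4 tested lymphocyte genes also 1.

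Beside the fall of AGTR2 in the aorta, CNN1 rose by 1.14 ± 0.20 (limma adjusted p = 0.000953; 1 near-term aorta array had no usable CNN1 spot) and DCN went down by 1.14 (difference -1.14 ± 0.25; limma adjusted p = 0.00618) between preterm and newborn. The other 3 fibroblast genes were not called in this comparison. Newborn minus preterm called 9.09% of all tested probes in the aorta and 15.7% in the ductus. The fibroblast sum went from 5.35 to 5.89 in the preterm aorta to 3.85 to 4.99 in the newborn aorta. In the ductus it was 6.07 to 6.38 in the preterm and 5.56 to 6.23 in the newborn group. Of 3 tested mast cell genes, TPSB2 was lower in the newborn than in the preterm group of both vessels, by -1.63 ± 0.27 in the ductus and -1.29 ± 0.27 in the aorta (limma adjusted p = 0.000267 and 0.00356). The other 2 were not called in either vessel: FCER1A differed by 0.07 and 0.44, and KIT was above background on 0 and 1 of 4 newborn arrays. Of 3 tested macrophage genes, CD14 was called higher in the newborn of both vessels, by 1.80 and 1.15, CD86 in the ductus (1.55; 0.36 in the aorta) and LYZ in neither (1.24 and 0.61). Of 6 tested endothelial genes, 2 were called higher in the newborn than in the preterm ductus, and 1 was called lower in the newborn than in the preterm aorta. Of 4 tested lymphocyte genes, 1 was called higher in the newborn ductus and 0 in the newborn aorta. The part of these cells in the AGTR1 and AGTR2 results was not tested.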

How the data were processed

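Total RNA of sheep ductus arteriosus and ascending aorta was amplified, labelled with Cy3 and hybridised to Agilent arrays of design 019921, per the labels' protocols. The files hold linear spot intensity, deposited as scanned and background-corrected with version 9.5.3.1 of Agilent Feature Extraction, per the file headers. Further normalisation by the authors is not given in the sources used here.

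From each log2 processed signal the log2 of the array's 75th percentile over non-control spots was subtracted. Control spots and outlier spots (2 to 124 per array) were left out, and spots of 1 probe were averaged. Signals well above background on at least 4 of 24 arrays were required, which left 13997 of 15008 probes. The 75th percentile ran from 322.1 to 1143, and 0 of 276 pairs of arrays held identical values. The number of arrays limits the precision.

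Symbols came from the array's names and, through accessions, from RefSeq names of ARS-UI_Ramb_v3.0; 1166 probes received 1 of 669 symbols, and 13842 carry none here. No probe sequences were used. limma 3.58.1 in R 4.3.3 (lmFit, eBayes, two-sided) fitted 6 group means over all arrays, with 11 comparisons, and was tested on simulated data. A fold written "at least" concerns a group with no array above background: the bright group's mean was set against a floor, per array the lowest signal called above background or the probe's own if higher. Signals above that floor can go uncalled, so such a fold is a convention and no strict lower limit. Each list's sum is the log2 of its genes' summed linear signals relative to the 75th percentile.

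The members are named whatever their result. Pathway genes are named where called or among the smallest p-values of a comparison, and the 3 genes most and 1 least correlated with each member are named. The members and lists were chosen with earlier results of these data known. Alternatives were normexp, quantile and median scaling, other filters, the compared groups alone, the other probe, the replicate number as a block, the spike-in limit as a covariate or a split at 1.5, an exact permutation test, and leaving out each array. The replicate numbers were not used to pair samples, since not every same-numbered pair deviated together. One gene of the pathway list is not reported here.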

Additional observations from a re-analysis of the deposited data

Results flagged for a closer look

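One value stood apart from its group: the testis-specific ACE probe A_70_P031637 gave -6.62 on newborn ductus replicate 2, against -7.63 to -7.46 on the other 3 arrays of the group. No array of this probe was well above background. Among 42 groups of 4 arrays, 1 was past Dixon's 95% limit for the gap of a single array, and chance alone would give about 2.1.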

How the results depend on the processing

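The AGTR2 fall from preterm to newborn passed under every alternative run with limma that kept more than 1 array in each compared group. The aortic arrays under 1.5, which include 1 preterm array, are not counted here. It also passed in all 8 fits without 1 array in each vessel (-3.24 to -2.67 in the ductus, -3.91 to -2.94 in the aorta). The exact permutation test, on the same differences of -2.91 and -3.57, gave p = 0.0286, the smallest that 4 against 4 arrays allow. Adjusted by Benjamini-Hochberg over the exact tests of the members, it was 0.129 and did not pass. The same held for each call, AGTR1 at -1.22 and AGTR2 in the aorta at birth at -2.33 included. The latter did not pass with quantile scaling (-1.91), median centring (-2.10), a fit of the compared groups only (-2.33, in which 0 of all probes were called) or the arrays with a spike-in limit above 1.5 (-1.16); without 1 array it ran from -2.66 to -1.69. The newborn AGTR1 difference did not pass with median centring (-1.05), the compared groups only (-1.22) or the arrays under 1.5 (-1.35); without 1 array it ran from -1.45 to -0.95. These subsets hold fewer arrays, and a group left with 1 array is assumed to vary like the others.

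AGTR1 in the ductus, newborn minus preterm, passed with the 75th percentile over commonly detected probes (-1.13), the stricter filter on dim probes (-1.10) and the spike-in covariate (-1.19), and without 1 array ran from -1.33 to -0.83. AGTR2 newborn ductus minus aorta passed with quantile scaling (1.79) and with the replicate block (1.40), and no other call changed with the replicate number as a block. The deviations of same-numbered ductus and aorta arrays correlated from -0.59 to 0.82 over 12 pairs, with 6 over 0.1; in the newborn, where the block changed the AGTR2 call, 3 of 4 pairs were over 0.1 (-0.031 to 0.19), and 3 of 4 ductus arrays correlated best with their own number. In the ductus from near term to newborn, AGTR2 (-1.20) and ACE (-1.58) passed with normexp. That setting called 5411 of all 13997 tested probes in this comparison, against 1515 as reported.

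Signs turned only for differences that passed nowhere. With the arrays under 1.5, AGTR1 gave 0.0080 for ductus near-term minus preterm, 0.22 near term between the vessels and 0.58 for the difference of the 2 changes; AGTR2 gave -0.56 near term between the vessels; and ACE gave -0.54 for aorta near-term minus preterm and 1.01 for ductus newborn minus preterm. With the arrays above 1.5, AGTR1 gave 0.11 and -0.087 for the 2 steps in the aorta and 0.20 between the preterm vessels; AGTR2 gave 0.17 for the difference of the near-term minus preterm changes; and ACE gave 0.43 and 1.09 for the aorta newborn minus near-term and minus preterm, and 0.15 and 0.19 between the fetal vessels. Median centring turned AGTR1 between the preterm vessels (0.15). In the aorta, ACE newborn minus near-term turned with quantile scaling (0.12) and the spike-in covariate (0.25), and ACE newborn minus preterm with normexp (0.25), quantile scaling (0.24), the covariate (0.60) and the other probe (0.45). The covariate also turned ACE in the ductus (0.46), and normexp (-0.024) and the other probe (-0.49) the difference of the near-term minus preterm changes. Without 1 array, signs turned within -0.13 to 0.15 for AGTR1 between the preterm vessels, -0.22 to 0.14, -0.043 to 0.32 and -0.041 to 0.25 for its 3 aorta differences, -0.027 to 0.54 for AGTR2 near term between the vessels, and -0.10 to 1.11, -1.69 to 0.25, -1.33 to 0.61 and -0.11 to 1.72 for ACE in the aorta and in the difference of the near-term minus preterm changes. The cause of these changes was not tested.

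Probes called over the whole array ran from 371 to 2016 in the newborn comparison of vessels (1416 as reported), from 1216 to 2462 for newborn minus preterm in the ductus (2197), from 273 to 1449 in the aorta (1273) and from 0 to 1497 for the aorta at birth (902). For newborn minus near-term in the ductus they ran from 614 to 5411 (1515), with the most under normexp. The slide could not be used as a block, since each holds 1 stage, and the slide row is the replicate number. Signal over background limits ACE, whose brighter probe was above background on 14 of 24 arrays.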
